A study of Mus musculus with 9 samples.

Results

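Solute carriers are membrane proteins that move amino acids, sugars, metals, ions, nucleosides, vitamins and other small molecules across the plasma membrane or the membranes of organelles. Their symbols give a family number, and members of a family are related in sequence and often carry similar cargo. In skeletal muscle they set the entry of amino acids, glucose, creatine and taurine, and they take part in pH, calcium and metal balance. Glucocorticoids such as dexamethasone, a synthetic ligand of the glucocorticoid receptor, are known to cause muscle wasting and to alter the supply and breakdown of amino acids in muscle.

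The genes described here are the rows of the expression table whose symbol is Slc followed by digits, a letter and digits, without the mitochondrial carriers of the Slc25 family and without Slc7a5, Slc7a11 and Slc16a3. The rule used names only and no measured value, though it was written with earlier results of these data known. It found 131 genes of the 10716 in the table, in 43 families, of which 14 families were represented by 1 gene. The table held 169 symbols of the pattern in all, 35 of them Slc25a genes and 3 left out by name. Only genes above 1 FPKM in every library are listed, so a carrier that fell below that level in any library is missing from these counts. Mouse annotation (GENCODE M21) holds 311 genes of the rule, of which 126 were found in the table by identifier and 185 were not analysed here, with 5 members carrying newer symbols. The insulin-responsive glucose carrier Slc2a4, the glucose carrier Slc2a3 and the bicarbonate carrier Slc4a4 were not found in the table.

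RNA was sequenced from cultures of C2C12, a mouse myoblast line that fuses into myotubes, in 3 groups of 3 libraries. The groups were vehicle, dexamethasone at 50 µM (dexamethasone group), and dexamethasone at 50 µM with THSG at 10 µM (THSG group), each for 24 h. THSG is a tetrahydroxystilbene glucoside, a plant polyphenol. All myotubes were otherwise of the same line, and no group received THSG without dexamethasone. The labels do not say that the libraries of a group came from separate cultures, so p-values measure only the spread between these libraries, which may be technical. Values were taken as FPKM, fragment counts scaled by transcript length and library size. How deeply each library was sequenced is unknown.

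The 9 libraries separated by dexamethasone along a first principal component that held 66% of the variance, with vehicle at -28.3 to -26.2 and the other 6 libraries at 12.1 to 14.8. The third dexamethasone library stood apart on the second component (7.73% of the variance, at -14.6), and mitochondrially encoded transcripts made up 14% of its summed FPKM against 10.5% to 12% elsewhere. Without that library, 55 solute carriers were still called against vehicle, 51 of them called with all libraries. All 18 myotube markers listed to check the labelled cell type were in the table. Of them 12 rose with dexamethasone and 1 fell (12.7% and 20.9% of all genes), with a median log2 change of 0.27 (-0.05 over all genes). Their summed level was 12342 to 13767 FPKM in vehicle, 13646 to 14693 in dexamethasone and 14411 to 14742 with THSG. Of 15 markers of unfused myoblasts and fibroblasts 10 were in the table (not Thy1, Lum, Fap, Tcf21 or Dpt). Of the 10, 7 fell and 2 rose with dexamethasone (20.9% and 12.7% of all genes), with a median log2 change of -0.52. Their sum went from 3837 to 4591 FPKM in vehicle to 2970 to 3142 in dexamethasone and 3019 to 3347 with THSG. Most of the sum came from S100a4, Vim and Col3a1, with means of 2482, 829 and 580.0 FPKM in vehicle. The 2 that rose were Myf5 (mean 7.74 FPKM in vehicle and 16.2 in dexamethasone) and Pdgfra (3.32 and 8.40). Of 10 adipocyte markers 2 were in the table, Cebpa, which rose, and Pparg, with sums of 7.54 to 9.84, 28.4 to 29.8 and 30.9 to 33.2 FPKM. Of 8 osteoblast markers 2 were in the table, Spp1 and Runx2, which both fell, with sums of 1702 to 1815, 618 to 658 and 659.6 to 705 FPKM. The part of these cell markers in the results below was not tested, and in bulk RNA fewer cells of a type and less RNA per cell cannot be told apart.

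The solute carriers spanned a wide range of levels per transcript length. Their median mean level was 9.25 FPKM, against 12.4 FPKM for all genes, and 35 of 131 had a mean under 5 FPKM. At least 100 FPKM was reached by 4 genes. They were Slc29a1, an equilibrative nucleoside carrier of the plasma membrane (249 FPKM over the 9 libraries), Slc6a6, the taurine carrier (189 FPKM), Slc38a2, a sodium-coupled carrier of small neutral amino acids (121 FPKM), and Slc44a2, a choline carrier-like protein (111 FPKM). The next in order were the endoplasmic reticulum zinc carrier Slc39a7 (67.6 FPKM), the heavy chain Slc3a2 that pairs with several amino acid carriers (58.6 FPKM) and the choline carrier Slc44a1 (51.8 FPKM). The sum over all 131 genes overlapped between groups, at 2316 to 2389 FPKM in vehicle, 2302 to 2341 in dexamethasone and 2336 to 2368 with THSG.

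Dexamethasone against vehicle addresses what the glucocorticoid did to the carriers of these myotubes. Of 131 solute carriers 55 passed the test (42%, against 33.6% of all 10716 genes), 19 of them higher (12.7% of all genes) and 36 lower (20.9% of all genes). The remaining 76 were not called, with log2 changes between -0.37 and 0.36. At least 2-fold rises were called for Slc43a3, Slc43a1, Slc5a3 and Slc39a10, 4 genes (1.22% of all genes), and at least 2-fold falls for Slc1a3, Slc8a1 and Slc20a1, 3 genes (1.67% of all genes; 2.89% in either direction). Groups did not overlap for 71 of 131 carriers (54.2%, against 45.9% of all genes). At an unadjusted p under 0.05 there were 74 (56.5%, against 43.5% of all genes). The median log2 change was -0.12 over the carriers and -0.05 over all genes. The split of calls moved with the scaling of the libraries. Median-ratio scaling gave 25 higher and 31 lower, quantile normalization gave 27 and 30, and it was 26 and 33 after a correction for GC content and transcript length. The median log2 change over all genes moved too, from -0.0502 to -0.00288, 0.00369 and 0.00515 in that order. Shares of all genes called under these settings are not given, and whether the moved split is particular to carriers was not tested.

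**Figure D1:**
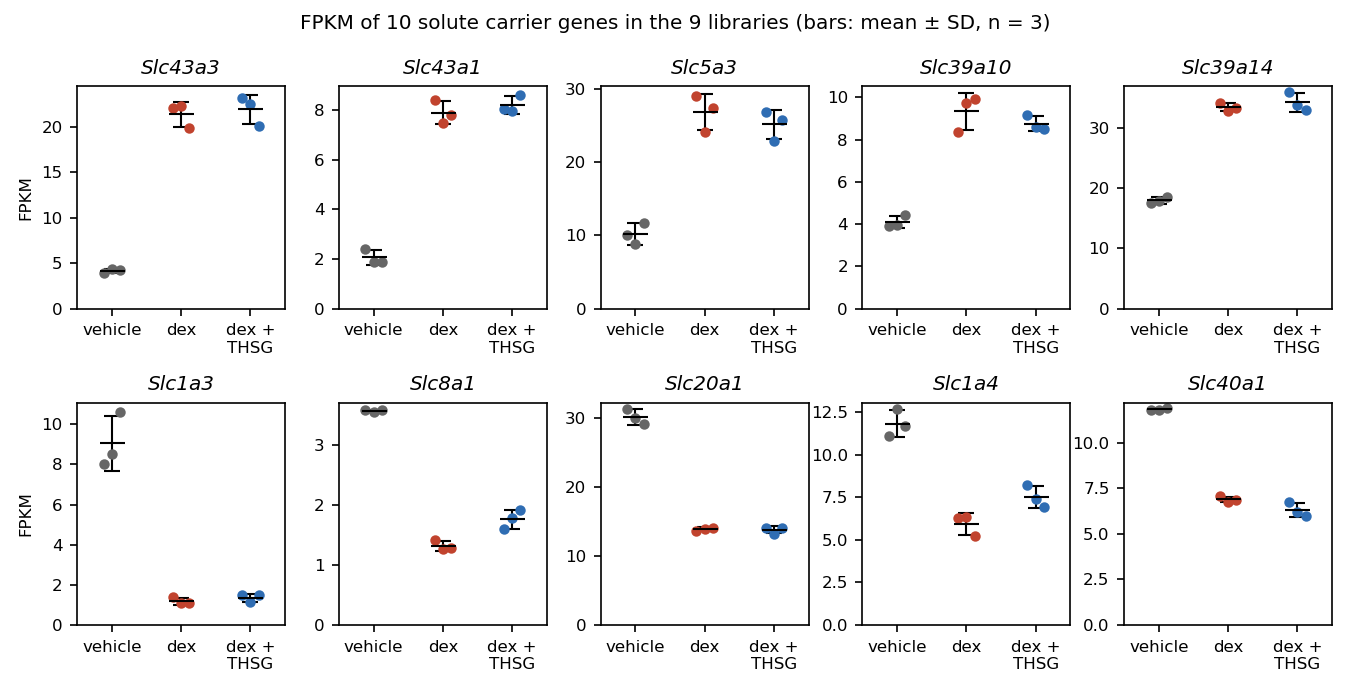
FPKM of 10 solute carrier genes (vertical axes, each from 0) in the 9 libraries by group, with points for libraries and bars for mean ± SD (n = 3). In the top row every dexamethasone library lies above every vehicle library, and in the bottom row below, with Slc8a1 and Slc1a4 somewhat higher with THSG than with dexamethasone alone.

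The strongest rises were in the Slc43 family, whose 3 listed members were all called higher (12.7% of all genes). Slc43a3, a purine nucleobase carrier, was at 3.91, 4.33 and 4.19 FPKM in the vehicle libraries, 22.0, 22.3 and 19.8 in dexamethasone and 23.1, 22.5 and 20.1 with THSG. Every library with dexamethasone was several-fold above every vehicle library, and both dexamethasone groups overlapped each other. Its log2 change was 2.34 (SE 0.077, adjusted p = 1.07e-09), the smallest adjusted p of the carriers. Slc43a1, a carrier of large neutral amino acids such as leucine that needs no sodium, was at 2.42, 1.87 and 1.89 FPKM in vehicle, 8.40, 7.48 and 7.82 in dexamethasone and 8.03, 7.96 and 8.63 with THSG. It stood near the listing floor in vehicle and well above it in all 6 other libraries. Its log2 change was 1.89 (SE 0.11, adjusted p = 1.41e-07). Slc43a2, which carries the same class of amino acids, was at 6.07, 6.10 and 5.64 FPKM in vehicle and 9.07, 9.64 and 7.96 in dexamethasone. The groups did not overlap, and the log2 change was 0.57 (SE 0.088, adjusted p = 0.000396).

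The Slc1 family, which carries glutamate, aspartate and small neutral amino acids, went the other way in all 3 of its listed members (20.9% of all genes). Slc1a3, a sodium-coupled glutamate and aspartate carrier, was at 8.03, 8.53 and 10.6 FPKM in vehicle, 1.39, 1.09 and 1.08 in dexamethasone and 1.47, 1.14 and 1.48 with THSG. It dropped to near the listing floor in all 6 libraries with dexamethasone. Its log2 change of -2.83 (SE 0.16, adjusted p = 1.03e-07) was the lowest of the 10716 listed genes in this comparison. Genes that fell below 1 FPKM in any library are not listed, so larger falls may be missing. Slc1a4, which exchanges alanine, serine and cysteine, was at 11.1, 12.7 and 11.7 FPKM in vehicle, 6.28, 6.34 and 5.22 in dexamethasone and 8.25, 7.40 and 6.94 with THSG. All 3 groups were separate, with THSG between the others, and the log2 change with dexamethasone was -0.98 (SE 0.099, adjusted p = 1.32e-05). Slc1a5, a glutamine exchanger, went from 5.17, 4.52 and 4.08 FPKM to 3.12, 3.12 and 2.76, a log2 change of -0.59 (SE 0.12, adjusted p = 0.00329). The calls of the 3 Slc1 and the 3 Slc43 genes held in every alternative that tested them.

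Other amino acid carriers changed less. Slc7a1, which brings in arginine and lysine, fell from 8.21 ± 0.23 to 5.81 ± 0.43 FPKM (mean ± SD, n = 3; log2 change -0.49, adjusted p = 0.000976), while its relatives Slc7a2 and Slc7a6 were not called (-0.12 and -0.00). The heavy chain Slc3a2 was at 62.7, 59.3 and 64.6 FPKM in vehicle and 52.6, 59.6 and 56.6 in dexamethasone. The groups overlapped, and the change of -0.15 did not pass (adjusted p = 0.0726). In the Slc38 family of 6 members, 2 rose and 2 fell (12.7% and 20.9% of all genes). Slc38a2 was at 107, 107 and 119 FPKM in vehicle and 127, 125 and 135 in dexamethasone (0.22, adjusted p = 0.0113), and Slc38a6 also rose (0.21). The members that fell were Slc38a7, a lysosomal carrier of glutamine and asparagine (-0.28), and Slc38a10 (-0.31), while the glutamine carrier Slc38a1 (0.05) and the lysosomal arginine-responsive Slc38a9 (0.13) were not called. In the Slc6 family of 4, the abundant taurine carrier Slc6a6 fell from 207, 202 and 217 FPKM to 183, 176 and 185 (-0.20, adjusted p = 0.00306). The creatine carrier Slc6a8 rose from 38.0, 38.5 and 36.7 FPKM to 42.4, 41.6 and 41.1 (0.14, adjusted p = 0.025), a call that was lost without the third vehicle library (adjusted p = 0.0862) or without either the first or the second dexamethasone library. Slc6a9, a glycine carrier, and Slc6a19, a neutral amino acid carrier of gut and kidney, were not called (-0.06 and -0.02). The proton-coupled amino acid carriers Slc36a1 and Slc36a4 were not called (-0.06 and -0.34).

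**Figure D2:**
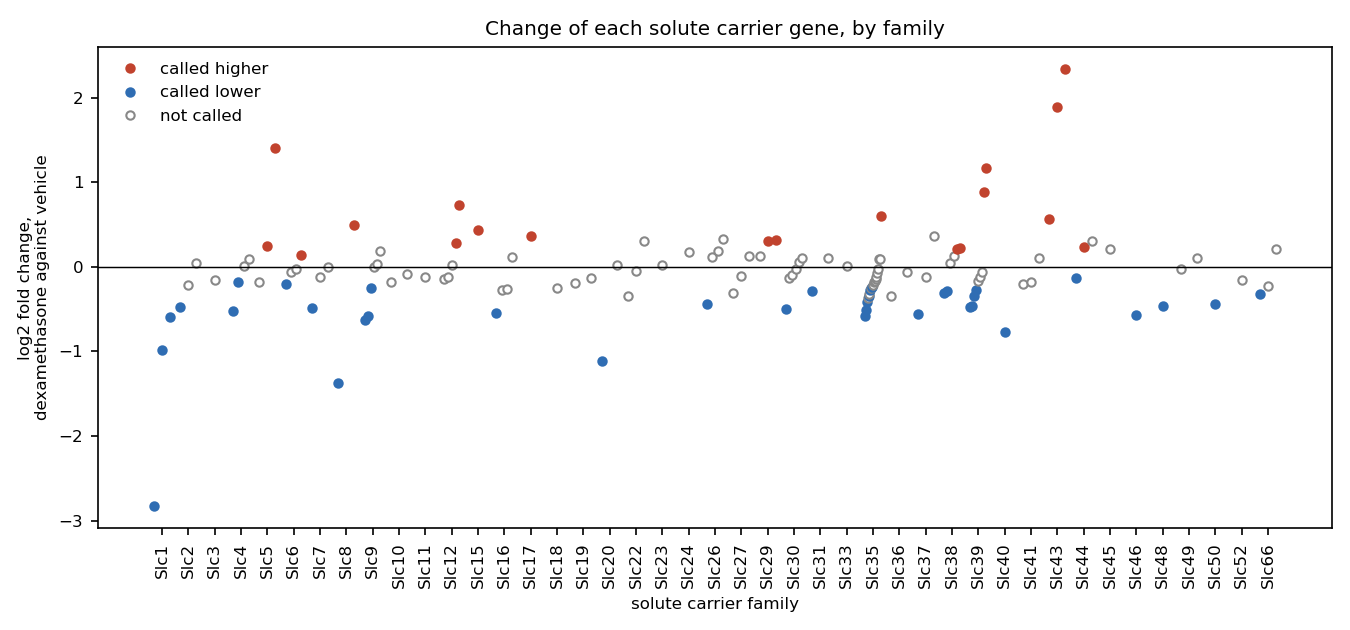
Log2 fold change of dexamethasone against vehicle (vertical axis) for each of the 131 solute carrier genes, placed by family (horizontal axis), with filled points for called genes and open points for genes not called. The 3 Slc43 genes lie above 0 and the 3 Slc1 genes below it. Of the 43 families, 15 hold no called gene, and 14 hold a single gene.

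Among carriers of sugars, inositol and vitamins, the large change was in Slc5a3, which takes up the osmolyte myo-inositol with sodium. It was at 10.0, 8.77 and 11.7 FPKM in vehicle, 29.0, 24.1 and 27.4 in dexamethasone and 26.8, 22.9 and 25.7 with THSG. Vehicle lay apart from the other 6 libraries, and the log2 change was 1.40 (SE 0.10, adjusted p = 1.07e-06). Slc5a3 shares 1.46% of its exon bases with Mrps6, a mitochondrial ribosomal protein gene on the same strand, and reads over those bases cannot be assigned to 1 of the genes. Mrps6 was at 49.5 FPKM in vehicle and 53.9 in dexamethasone (mean, n = 3; log2 change 0.12, adjusted p = 0.323). Slc5a6, which carries biotin and pantothenate, rose slightly (0.25, adjusted p = 0.034), a call lost without the first or second vehicle library (adjusted p = 0.0629 and 0.112) or the second dexamethasone library (adjusted p = 0.124). The glucose carrier Slc2a1 was at 16.9, 16.0 and 15.9 FPKM in vehicle and 18.4, 15.7 and 16.5 in dexamethasone. These overlapped, and the change of 0.05 (adjusted p = 0.616) had a 95% interval of -0.10 to 0.19. Slc2a6, a lysosomal hexose carrier, fell from 29.8 ± 2.6 to 21.4 ± 1.2 FPKM (-0.48, adjusted p = 0.000226). Slc37a3, of the sugar phosphate family, fell (-0.56), as did the sugar efflux carrier Slc50a1 (-0.44) and the proton-coupled folate carrier Slc46a1 (-0.57). The thiamine carrier Slc19a2 (-0.13), the folate carrier Slc19a1 (-0.19), the vitamin C carrier Slc23a2 (0.02) and the riboflavin carrier Slc52a2 (-0.15) were not called.

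Metal carriers moved in both directions. Slc39 proteins bring zinc, and some of them iron or manganese, into the cytosol. Of 9 listed, 2 rose and 4 fell (12.7% and 20.9% of all genes). Slc39a14, which carries zinc, iron and manganese, was at 17.5, 17.9 and 18.6 FPKM in vehicle, 34.2, 32.9 and 33.3 in dexamethasone and 36.1, 33.9 and 33.0 with THSG. Slc39a10, a zinc importer of the plasma membrane, was at 3.92, 3.98 and 4.41 FPKM in vehicle, 8.34, 9.76 and 9.94 in dexamethasone and 9.16, 8.60 and 8.51 with THSG. Both genes were about as high with THSG as with dexamethasone alone, and vehicle did not overlap either group. Their log2 changes were 0.89 (SE 0.051, adjusted p = 1.24e-07) and 1.17 (SE 0.091, adjusted p = 1.66e-06). Slc39a7, which releases zinc from the endoplasmic reticulum, fell from 90.6, 77.9 and 78.7 FPKM to 61.5, 63.4 and 54.9 (-0.46, adjusted p = 0.000493). It shares 80.7% of its exon bases with Gm20427, an annotated transcript on the same strand, so the reads of the pair cannot be told apart. Slc39a1 (-0.34), Slc39a11 (-0.47) and Slc39a13 (-0.27) also fell. The call of Slc39a13 was lost in 8 of 20 alternatives, with a change of -0.10 under the GC and length correction (adjusted p = 0.305), and without the first or the second vehicle library, or the first or the third dexamethasone library. Of the 6 Slc30 genes, which move zinc out of the cytosol, Slc30a1, the zinc exporter of the cell surface, fell from 2.61, 2.36 and 2.38 FPKM to 1.81, 1.62 and 1.68 (-0.50, adjusted p = 0.0183). The call was lost without the first vehicle library (adjusted p = 0.0652) or the second dexamethasone library (adjusted p = 0.0557).

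Outside the Slc39 family, the called carriers of iron, heme and copper fell. Slc40a1, ferroportin, the iron exporter of the cell surface, was at 11.8, 11.8 and 11.9 FPKM in vehicle, 7.06, 6.76 and 6.84 in dexamethasone and 6.73, 6.22 and 5.96 with THSG. The vehicle libraries were almost identical and lay above all others, with a log2 change of -0.77 (SE 0.073, adjusted p = 7.51e-06). Slc48a1, which moves heme out of endosomes and lysosomes, fell from 32.3, 30.6 and 32.0 FPKM to 23.7, 22.3 and 23.1 (-0.46, adjusted p = 2e-05). The copper importer Slc31a1 fell (-0.28, adjusted p = 0.0101), while Slc31a2 (0.10) and the iron importer Slc11a2 (-0.12, adjusted p = 0.0856) were not called. None of the 3 magnesium carriers of the Slc41 family was called.

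Of carriers of calcium, sodium, potassium, bicarbonate and phosphate, both listed sodium-calcium exchangers changed, in opposite directions. Slc8a1, which extrudes calcium across the plasma membrane, was at 3.59, 3.56 and 3.59 FPKM in vehicle, 1.42, 1.27 and 1.28 in dexamethasone and 1.60, 1.78 and 1.92 with THSG. The 3 groups did not overlap, with the dexamethasone group close to the listing floor. Its log2 change with dexamethasone was -1.37 (SE 0.12, adjusted p = 5.56e-06). Slc8b1, the exchanger of the mitochondrial inner membrane, was at 32.4, 30.4 and 28.9 FPKM in vehicle, 44.4, 42.9 and 41.4 in dexamethasone and 45.7, 47.5 and 42.6 with THSG. It was higher in all 6 libraries with dexamethasone (0.49, SE 0.058, adjusted p = 4.68e-05). The sodium-potassium-calcium exchanger Slc24a3 was not called (0.17, adjusted p = 0.0753).

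Slc20a1, a sodium-phosphate carrier that also serves as a retrovirus receptor, was at 31.3, 29.9 and 29.1 FPKM in vehicle, 13.6, 13.9 and 14.1 in dexamethasone and 14.0, 13.2 and 14.1 with THSG. Every vehicle library lay well above every other library, and the log2 change was -1.11 (SE 0.056, adjusted p = 3.75e-08). Its paralog Slc20a2 was at 19.1 ± 0.27 FPKM in vehicle and 19.4 ± 1.9 in dexamethasone (0.02, adjusted p = 0.834). Slc12a2, which brings in sodium, potassium and chloride and sets cell volume, was at 13.2, 14.5 and 13.2 FPKM in vehicle and 21.7, 23.0 and 23.0 in dexamethasone. The groups were apart (0.73, SE 0.060, adjusted p = 2.45e-06). Slc12a4, Slc12a7 and Slc12a9 were not called (-0.14, 0.02 and -0.12). Among the 6 members of the Slc9 family of sodium-proton exchangers 3 fell (20.9% of all genes). They included the endosomal Slc9a9 (24.2 ± 0.31 to 16.1 ± 0.18 FPKM, -0.58, adjusted p = 2.89e-05) and Slc9a5 (-0.63, adjusted p = 0.0127). The call of Slc9a5 was lost without the third vehicle library (adjusted p = 0.0521). Of 4 bicarbonate carriers Slc4a2 (-0.18) and Slc4a8 (-0.52) fell, against 20.9% of all genes. Their calls were lost in 8 and 5 of 20 alternatives, some of them with 1 library left out. The sulfate carrier Slc26a2 fell (-0.44, adjusted p = 0.00516) and the other 3 Slc26 members were not called.

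Carriers of lactate, lipids, choline and nucleosides changed mostly by small amounts. Slc16a1, which carries lactate and pyruvate with protons, fell from 19.6, 18.7 and 18.2 FPKM to 11.9, 14.0 and 12.8, with 13.5, 13.4 and 12.3 with THSG. All 6 libraries with dexamethasone were below vehicle (-0.54, SE 0.072, adjusted p = 0.000131). The fatty acid carrier Slc27a1 (0.13, adjusted p = 0.089) and the carnitine carrier Slc22a5 (0.30, adjusted p = 0.0631) were not called. Slc29a1, the most abundant carrier per length, was at 215, 209 and 206 FPKM in vehicle, 262, 258 and 259.7 in dexamethasone and 282, 271 and 281 with THSG. The groups were fully apart, and the log2 change with dexamethasone was 0.31 (SE 0.038, adjusted p = 7.72e-05). Slc29a3, a nucleoside carrier of lysosomes, rose from 4.90 ± 0.18 to 6.12 ± 0.17 FPKM (0.32, adjusted p = 0.0148), a call lost without the first vehicle library (adjusted p = 0.0515). Slc44a1 rose (0.24) and Slc44a2 fell (-0.13, adjusted p = 0.0196), with Slc44a2 losing its call under median-ratio scaling (-0.08, adjusted p = 0.12) and in 7 other alternatives.

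Nucleotide sugar and sulfate donor carriers of the Slc35 family, which supply the endoplasmic reticulum and Golgi for glycosylation and sulfation, formed the largest family, with 19 members. Of these 6 fell and 1 rose (20.9% and 12.7% of all genes), so the share called was near the 33.6% over all genes. The family's median log2 change was -0.21, against -0.05 over all genes. The falling members were Slc35a2, the UDP-galactose carrier (16.4, 16.5 and 16.8 FPKM in vehicle, 12.7, 10.6 and 10.0 in dexamethasone; -0.58, adjusted p = 0.000645), Slc35b2, a carrier of the sulfate donor PAPS (-0.51), Slc35b1, which exchanges ATP into the endoplasmic reticulum (-0.34), Slc35b3, also a PAPS carrier (-0.41), the CMP-sialic acid carrier Slc35a1 (-0.27) and Slc35a4 (-0.24). Calls of Slc35b3 and Slc35a4 were lost in 11 and 12 of 20 alternatives. The member that rose was Slc35f5, of unsettled cargo, at 18.7, 19.7 and 18.7 FPKM in vehicle, 29.7, 29.1 and 27.9 in dexamethasone and 30.2, 28.0 and 29.7 with THSG (0.60, SE 0.052, adjusted p = 3.79e-06). Vehicle lay below all other libraries for this gene. Among lysosomal carriers outside the families above, the peptide and histidine carrier Slc15a4 rose from 14.2 ± 0.48 to 19.2 ± 1.2 FPKM (0.43, adjusted p = 0.000318). The sialic acid exporter Slc17a5 rose from 6.23 ± 0.35 to 8.03 ± 0.22 FPKM (0.36, adjusted p = 0.00348). Slc66a2 fell (-0.32, adjusted p = 0.0214), a call lost in 5 of 20 alternatives, among them without the first or second vehicle library (adjusted p = 0.0764 and 0.0515) or the third dexamethasone library (adjusted p = 0.0768), and the 2 other Slc66 members were not called. No member was called in 15 families, among them Slc10, Slc18, Slc33, Slc45 and Slc49.

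**Figure D3:**
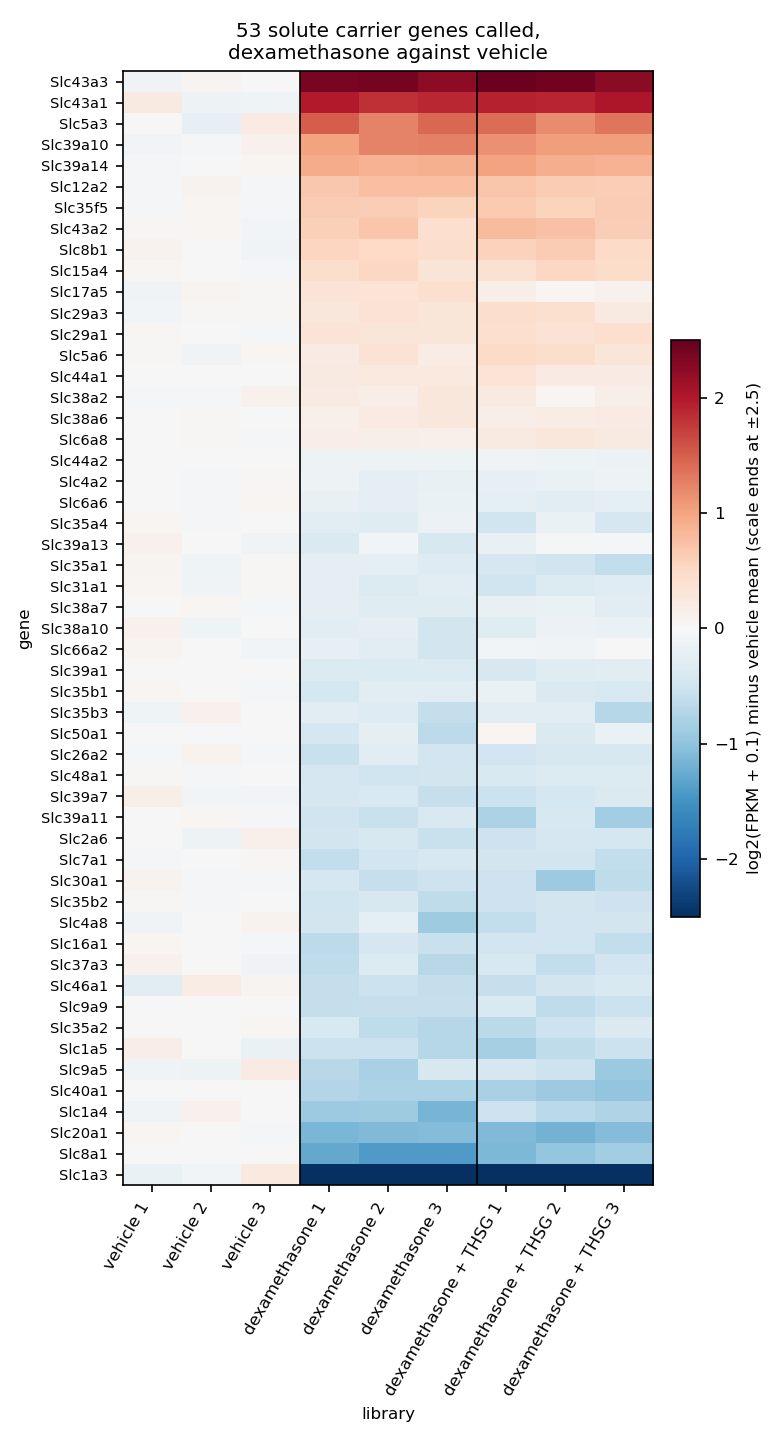
Log2(FPKM + 0.1) of 53 of the 55 solute carrier genes called for dexamethasone against vehicle (rows, ordered by log2 change) in each of the 9 libraries (columns), as the difference from the vehicle mean, with colours ending at ±2.5. The 18 shown genes called higher are red and the 35 called lower are blue in the dexamethasone libraries, Slc1a3 lies past the end of the scale, and Slc17a5, Slc50a1 and Slc66a2 are paler with THSG.

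Promoter windows were read for the carriers with the clearest changes. RefSeq (mouse GRCm38.p6, an earlier build than the authors used) gave windows from 250 bases before to 50 bases after the annotated start, 132 windows for 100 of the 131 genes. Slc43a3, Slc12a2, Slc39a14 and Slc40a1 were among the 31 without one. Short patterns were searched on both strands. The first was ACANNNTGT, the core of the paired glucocorticoid receptor site, and the second was its single arm TGTTCT, added after values were seen. ACANNNTGT was in 1 of 132 windows (0.758%, the zinc carrier Slc30a5, which was not called), against 6.85% of all 32851 windows of that length. TGTTCT was in 13 windows (9.85%, against 19% of all windows). They included 2 of 25 windows of carriers called higher (Slc29a1 and Slc35f5) and 4 of 35 windows of carriers called lower (Slc1a3, Slc20a1, Slc46a1 and Slc7a1). The others belonged to carriers that were not called (Slc6a19, Slc23a2, Slc27a3, Slc29a2, Slc30a5, Slc30a6 and Slc36a1). TGATGNAAT, a motif of the amino acid response factor ATF4, was in 0 of 132 windows (0.965% of all windows). All windows cover 27025 genes, whether or not they are in the expression table. These shares therefore do not set carriers against other expressed genes, and no trait of carriers is read from them. A match is a run of letters and not a measured site, and other regions of these genes were not searched.

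Windows are shown for a pair of carriers that rose at least 2-fold and the pair that fell at least 2-fold and hold the arm, in capitals where present and otherwise in lower case, 5′ to 3′ on the gene's strand. Slc43a1 lies at chr2:84840073-84840372 (plus strand), Slc5a3 at chr16:92058072-92058371 (plus strand), Slc1a3 at chr15:8710758-8711057 (minus strand) and Slc20a1, the second of its 2 windows, at chr2:129206846-129207145 (plus strand). The arm lies 24 to 19 bases before the start of Slc1a3 and 204 to 199 bases before that start of Slc20a1.
Slc43a1: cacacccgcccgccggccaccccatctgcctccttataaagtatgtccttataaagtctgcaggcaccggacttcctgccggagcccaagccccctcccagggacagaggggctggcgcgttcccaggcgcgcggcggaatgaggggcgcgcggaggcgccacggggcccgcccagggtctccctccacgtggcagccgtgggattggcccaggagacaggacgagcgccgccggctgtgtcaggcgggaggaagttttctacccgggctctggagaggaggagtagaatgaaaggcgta
Slc5a3: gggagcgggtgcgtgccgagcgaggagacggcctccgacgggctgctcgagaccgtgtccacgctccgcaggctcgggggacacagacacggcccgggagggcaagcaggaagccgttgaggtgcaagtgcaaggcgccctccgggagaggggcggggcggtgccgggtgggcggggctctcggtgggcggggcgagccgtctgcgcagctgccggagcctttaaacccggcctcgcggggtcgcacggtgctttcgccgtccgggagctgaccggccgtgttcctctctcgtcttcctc
Slc1a3: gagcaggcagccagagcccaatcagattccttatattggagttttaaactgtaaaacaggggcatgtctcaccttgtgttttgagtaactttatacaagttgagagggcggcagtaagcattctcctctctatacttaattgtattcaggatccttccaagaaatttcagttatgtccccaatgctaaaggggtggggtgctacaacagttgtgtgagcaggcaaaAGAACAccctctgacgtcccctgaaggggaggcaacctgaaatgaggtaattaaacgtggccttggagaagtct
Slc20a1: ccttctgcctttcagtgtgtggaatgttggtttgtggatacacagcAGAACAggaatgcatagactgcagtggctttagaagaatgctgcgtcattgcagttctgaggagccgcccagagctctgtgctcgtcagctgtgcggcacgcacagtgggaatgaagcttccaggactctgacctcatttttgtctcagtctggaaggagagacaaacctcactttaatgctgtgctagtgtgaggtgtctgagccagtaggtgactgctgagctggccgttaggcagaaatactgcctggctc
The windows of the risen Slc43a1 and Slc5a3 hold neither pattern. Those shown of the fallen Slc1a3 and Slc20a1 hold 1 arm each and no paired core. The fallen pair was picked for holding the arm, so the contrast with the risen pair follows from that choice.

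Some carriers lie beside each other in the genome. With at most 4 genes between them, 8 pairs of members were neighbours, and both genes were called for dexamethasone against vehicle in 3 pairs. Taken singly, 42% of the 131 carriers and 33.6% of all genes were called in that comparison. Whether neighbours were called together more often than other pairs was not tested. Slc43a1 and Slc43a3, on chromosome 2 with Rtn4rl2 between them, both rose. Slc40a1 and Slc39a10, on chromosome 1, went in opposite directions (-0.77 and 1.17), as did Slc35b2 and Slc29a1 on chromosome 17 (-0.51 and 0.31). Exon bases were shared with another annotated gene for 38 members, with a gene of the table for 11, and the strand setting of the counting is not given in the sources used here. Overlaps with listed genes on the opposite strand included those of Slc6a9 with Ccdc24 (27.8% of exon bases) and Slc4a2 with Fastk (13.7%), and Fastk was also called lower (-0.15, adjusted p = 0.0432).

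Other transporter genes and partners were counted from lists, beside 12.7% higher and 20.9% lower calls and a median log2 change of -0.05 over all genes. Of 30 accessory subunits and regulators of solute carriers 22 were listed, 9 rose and 2 fell with dexamethasone (median log2 change 0.11). Emb, embigin, a partner of the lactate carriers, was at 3.28, 3.96 and 2.84 FPKM in vehicle and 10.8, 10.3 and 9.38 in dexamethasone (1.58, adjusted p = 9.61e-07). It rose while Slc16a1 fell, and Bsg, basigin, the other partner, was at 334 ± 9.5 and 312 ± 14 FPKM (-0.10, adjusted p = 0.108). The kinase Sgk1, which keeps several carriers at the cell surface, rose from 15.8 ± 0.87 to 100.3 ± 1.6 FPKM (2.66, adjusted p = 5.66e-12). Of 27 genes of iron, copper and zinc handling 20 were listed, 7 rose and 3 fell (median 0.04). The metal-binding metallothioneins Mt2 (3.85) and Mt1 (2.67) and the ferroxidase Cp (1.07), which works with ferroportin, rose, while the metalloreductase Steap1 fell (-0.99). Of 16 ion-pumping ATPase genes of the plasma membrane 9 were listed, 3 rose and 4 fell (median -0.02), with the sodium pump subunits Atp1b1 at 0.98 and Fxyd5 at -2.03. Of 32 ABC transporters 20 were listed, 4 rose and 3 fell (median 0.07). Of 45 transporters of the same folds under other symbols 23 were listed under the symbol searched, 2 rose and 2 fell (median 0.02). Genes of this list that the table holds under a newer symbol, such as the Slc66 members, were not counted here.

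THSG with dexamethasone against dexamethasone alone addresses what THSG added. No solute carrier passed the test (0 of 131, and 0% of all 10716 genes in limma). At an unadjusted p under 0.05 there were 10 (7.63%, against 7.25% of all genes), 8 higher and 2 lower. Over all 10716 genes 541 were higher and 236 lower at that p, so the lean to higher values was not particular to the carriers. Log2 changes lay between -0.26 and 0.39, with a median of 0.01 (0.02 over all genes). The smallest adjusted p was 0.534, and over the alternatives the smallest ranged from 0.288 to 0.899. Groups did not overlap for 18 carriers (13.7%, against 13.3% of all genes). The median distance from an estimate to either end of its 95% interval was 0.194, before any adjustment for the number of genes.

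The carriers with the smallest p are given as values. Slc1a4, at 6.28, 6.34 and 5.22 FPKM in dexamethasone and 8.25, 7.40 and 6.94 with THSG, differed by 0.34 (95% interval 0.12 to 0.55, adjusted p = 0.548). Slc8a1, at 1.42, 1.27 and 1.28 against 1.60, 1.78 and 1.92 FPKM, differed by 0.39 (95% interval 0.12 to 0.66, adjusted p = 0.572). For both genes the THSG libraries were all above the dexamethasone libraries and all below vehicle. Slc17a5, at 7.93, 7.88 and 8.28 against 6.86, 6.48 and 6.70 FPKM, differed by -0.26 (95% interval -0.43 to -0.09), which places it at the level of vehicle (5.82, 6.50 and 6.36 FPKM), with overlap. Slc66a2 differed by 0.26, at levels that overlap vehicle. Slc35a1, lower with dexamethasone, was lower again with THSG, at 17.5, 17.3 and 16.5 against 15.4, 14.5 and 13.5 FPKM (-0.24, 95% interval -0.39 to -0.09, adjusted p = 0.534). The abundant Slc29a1 differed by 0.10 and Slc27a1 by 0.15, both further from vehicle than dexamethasone alone. Slc30a7 (-0.20), Slc39a9 (-0.14) and Slc40a1 (-0.13) completed the 5 with the smallest p on the lower side. The strongly changed Slc43a3 (0.04), Slc43a1 (0.06), Slc20a1 (-0.01), Slc5a3 (-0.09) and Slc39a14 (0.04) had libraries that overlapped between both groups.

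**Figure D4:**
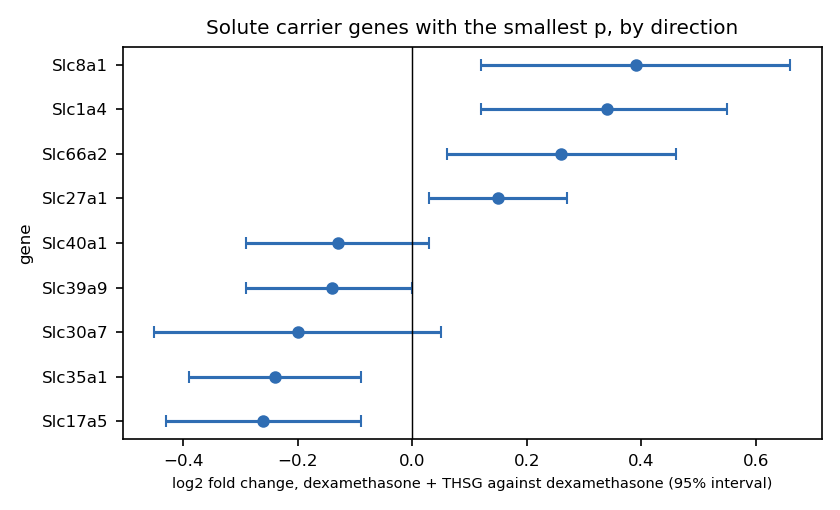
Log2 fold change of THSG with dexamethasone against dexamethasone alone (horizontal axis, points with 95% intervals) for 9 of the solute carrier genes with the smallest p, 4 higher and 5 lower (vertical axis). None passed adjustment, and the estimates run from -0.26 for Slc17a5 to 0.39 for Slc8a1.

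THSG with dexamethasone against vehicle again called 55 of 131 carriers (42%, against 29.1% of all genes), 19 higher (12.1% of all genes) and 36 lower (17% of all genes). This comparison shares the vehicle libraries with dexamethasone against vehicle, so its calls are not separate support. Groups did not overlap for 72 carriers (55%, against 43.1% of all genes), and the median log2 change was -0.09 (-0.04 over all genes). The log2 changes of the leading carriers were 2.37 for Slc43a3, 1.95 for Slc43a1, 1.31 for Slc5a3 and 1.08 for Slc39a10, and -2.65 for Slc1a3, -1.12 for Slc20a1, -0.98 for Slc8a1 and -0.90 for Slc40a1. At an unadjusted p under 0.05 there were 68 carriers (51.9%, against 39.1% of all genes). Rises of at least 2-fold were called for 4 carriers (1.25% of all genes) and falls for 2 (1.59%; 2.84% in either direction). Called here and not for dexamethasone alone were Slc22a5 (0.44, adjusted p = 0.0117), Slc27a1 (0.28, adjusted p = 0.00222), Slc11a2 (-0.16), Slc30a7 (-0.33), Slc35a3 (-0.34), Slc35e1 (-0.21) and Slc39a9 (-0.31). Slc22a5 lost that call without the third THSG library. Slc11a2 and Slc30a7 lost it in 11 and 13 of 20 alternatives, among them median-ratio scaling (adjusted p = 0.106 and 0.0793) and leaving out the third THSG library (adjusted p = 0.128 and 0.134). Genes not called here included Slc17a5, Slc38a2, Slc38a10, Slc39a13, Slc50a1 and Slc66a2, which had calls for dexamethasone alone. None of these genes differed between the THSG and dexamethasone groups in the test of that difference.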

How the data were processed

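Per the labels, a Hybrid-R kit gave the RNA and a TruSeq kit the stranded mRNA libraries. Tools named in the submitters' processing notes are STAR 2.7.10a and featureCounts, and the build is GRCm39 (mm39). The deposited values were taken to be FPKM, since they are fractional and all exceed 1. No header states this unit or the filter, and depth and counting error are unknown. Sample titles name the line C2C12 and were followed where the cell line field differs. With limma 3.58.1 (R 4.3.3), 1 mean per group was fitted to log2(FPKM + 0.1) of all 9 libraries, with an intensity trend, two-sided tests, Benjamini-Hochberg adjustment over 10716 genes, a threshold of 0.05 and 95% intervals. Fold changes are on this scale, which understates those of low genes. The fit was tested on simulated data. Annotation was GENCODE M21 and RefSeq (GRCm38), which matched 131 and 129 members. Members and lists were chosen with earlier results of these data known. Named genes were, for each comparison, the 15 called carriers that rose most and the 15 that fell most whose groups do not overlap (the 5 with the smallest p in each direction where under 5 were called), 32 fixed names, and up to 3 genes a list. Other carriers and list genes named in the family accounts fall outside that rule and were chosen with their values seen. Some genes that the rule gives are left out of the text and figures. Replicate numbers did not pair the libraries. Results were recomputed with pseudocounts of 0 and 1, with quantile normalization, equal sums or median-ratio scaling, with a mean of at least 5 FPKM, no intensity trend, the pair of groups alone, a replicate block, a GC content and length correction (10670 genes) without and with the block, and leaving out each library.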

Additional observations from a re-analysis of the deposited data

How the results depend on the processing

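The number of solute carriers called for dexamethasone against vehicle stayed between 48 (of 96 with a mean of at least 5 FPKM) and 59 (GC and length correction), and between 50 and 56 with a library left out, against 55. For THSG with dexamethasone against vehicle the range was 45 to 57, and 47 to 56 with a library left out, against 55. For THSG with dexamethasone against dexamethasone it was 0 in all 20 alternatives. Shares of all genes called under the alternatives are not given, so these ranges are not set against all genes. With the replicate number as a block the counts were 54, 0 and 54. The block ended, among others, the call of Slc5a6 for dexamethasone against vehicle (adjusted p = 0.0525) and those of Slc11a2 and Slc30a7 for THSG with dexamethasone against vehicle (adjusted p = 0.0585 and 0.0619). Correlations between same-numbered libraries ran from -0.086 to 0.107 over 9 pairs. Of the 55 calls for dexamethasone against vehicle, 40 held in every alternative that tested them and 15 were lost in at least 1 (among them Slc4a2, Slc4a8, Slc5a6, Slc6a8, Slc9a5, Slc29a3, Slc30a1, Slc35a4, Slc35b3, Slc39a11, Slc39a13, Slc44a2, Slc50a1 and Slc66a2). A further 19 gained a call in at least 1 without a change of direction, not counting Slc35e4 below. For THSG with dexamethasone against vehicle 44 held, 11 were lost and 13 gained. Slc35e4 changed direction against vehicle, from -0.02 to 0.16 under the GC and length correction (adjusted p = 0.0308) and to 0.16 with the replicate block added to it (adjusted p = 0.0263), and the cause was not tested. The listing floor of 1 FPKM limits the lowest carriers, Slc1a3 and Slc8a1 among them. With depth unknown, precision rests only on the spread of libraries within the 3 groups, estimated together and with the trend over all genes.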
